A study of Mus musculus with 9 samples.

Results

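Collagens are assembled from chains, and the mouse eye reads of 41 collagen chain genes are described here. The chains were every protein-coding row whose symbol reads Col, a number, a and a number, which is 41 of 16212 protein-coding rows and of 22587 rows in all. By chain type, 11 were fibrillar, 6 were type IV chains of basement membranes, and 24 belonged to other classes. The other classes were 9 fibril-associated chains (FACITs), 4 beaded-filament chains of type VI, 4 transmembrane chains, 3 network chains of types VIII and X, 2 multiplexins, the anchoring fibril chain Col7a1, and Col28a1. Col6a4, Col6a6, Col21a1 and Col26a1 were not analysed here.

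RNA came from eyeballs of female wild-type (WT) BALB/C mice, an albino inbred strain, at postnatal day 56. The CON group was not injected and had water, the DES group had intraperitoneal scopolamine, a muscarinic receptor blocker used to induce dry eye, and water, and the T.chuii group had scopolamine and Tetraselmis chuii, a green microalga, at 300 mg/kg. Treatment ran for 2 weeks from 6 weeks of age, and each group had 3 libraries. The study used 15 mice, and the labels do not say that the libraries of a group were separate animals, which leaves p-values as a measure of library-to-library spread that may be technical.

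Collagen chains wind around each other into a helix. Fibrillar chains of types I, III and V build the tensile fibrils of the sclera and the corneal stroma, and those of types II and XI the fibrils of the vitreous. Type IV chains form the sheets of basement membranes, among them the lens capsule, Descemet's membrane and the inner limiting membrane of the retina. FACITs sit on fibril surfaces, type VI chains form beaded filaments between fibrils, type VIII chains form the lattice of Descemet's membrane, and Col17a1 and Col7a1 fasten epithelium to the underlying matrix.

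Libraries held 39.1 to 64.6 M reads, of which collagen chains took 0.0759% to 0.227%. Each of the 41 chains passed the filter on low counts, and the fewest reads were those of Col22a1, with 10 to 47 reads a library. The most were those of Col1a2, with 3612 to 31130. CON 2, DES 1 and T.chuii 1 stood apart by tissue content, with a log2 ratio of corneal epithelium to rod marker reads of 1.71, 1.01 and 1.69, against -0.52 or lower in the other 6. Lens marker reads were 0.0239% to 0.0309% of reads in CON and 1.24% to 6.23% for T.chuii. They were 4.25%, 0.0431% and 3.61% in DES 1, 2 and 3, so DES 2 held about as little lens RNA as the CON libraries. For RNA labelled as eyeball, lens markers were thus near absent in 4 libraries: Lim2, a lens fibre membrane protein, was at 0.534 to 1.25 CPM (scaled read counts) there and at 61.0 to 1134 CPM in the other 5. Rod and corneal epithelium markers held at least 0.879% and 0.890% of reads in every library.

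The Col4a1 and Col4a2 genes, which encode the main basement membrane pair, lie head to head, and the stretch at which their transcripts start is shown because the later values move together. The RefSeq starts used here are 21 bases apart on chromosome 8 of GRCm38 (mm10). Col4a2 runs forward from 11312805 and Col4a1 backward from 11312826. The RefSeq span of the Col4a1 gene reaches further, to 11312889. With the starts used here, the first exons overlap on opposite strands by the 22 bases at chr8:11312805-11312826, printed on the plus strand.
Col4a1 and Col4a2 shared start: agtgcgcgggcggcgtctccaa
Reads from these bases cannot be divided between the pair without strand, and the strand setting of the counting was not given in the sources used here. They are 0.29% of the exonic length of Col4a1 and 0.33% of that of Col4a2. The other type IV genes form head-to-head pairs as well, with 72 bases between the annotated starts of Col4a3 and Col4a4 on chromosome 1 and 1343 between those of Col4a5 and Col4a6 on chromosome X. The RefSeq span of Col4a4 reaches to 82587034, past the Col4a3 start at 82586921.

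Stretches before the transcription start are shown for 6 of the 9 chains whose CON and DES libraries did not overlap, the 6 with an entry in the table used. They are from the RefSeq promoter table of GRCm38.p6, which held windows for 33 of the 41 chains (36 windows), and parts inside an annotated exon are left out. Each reads 5′ to 3′ on the gene's own strand, and capitals mark motifs on either strand. Searched were the CCAAT box of many regulated promoters, the GC box with the letters GGGCGG, and the TATA box in its form TATAAA, each also as its reverse complement. The first is from Col1a2, a chain of type I collagen, at chr6:4505370-4505492 on the plus strand, with GGGCGG 205 and 188 bases before the start. This stretch ends well before the start, and the whole Col1a2 window also held 2 copies of CCAAT, on either strand, outside the stretch.
Col1a2: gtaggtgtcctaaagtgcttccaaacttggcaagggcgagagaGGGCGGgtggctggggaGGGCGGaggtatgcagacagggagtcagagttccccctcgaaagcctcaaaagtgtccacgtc
Col6a1 and Col6a2 encode type VI chains, at chr10:76726169-76726294 and chr10:76623631-76623880, both on the minus strand. None of the motifs was in the Col6a1 stretch of 126 bases, and the Col6a2 stretch held GGGCGG in reverse at 175 bases. Another window of Col6a2, not shown, held 3 copies of GGGCGG.
Col6a1: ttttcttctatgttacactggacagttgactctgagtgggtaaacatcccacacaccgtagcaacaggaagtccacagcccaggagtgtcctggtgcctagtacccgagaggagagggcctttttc
Col6a2: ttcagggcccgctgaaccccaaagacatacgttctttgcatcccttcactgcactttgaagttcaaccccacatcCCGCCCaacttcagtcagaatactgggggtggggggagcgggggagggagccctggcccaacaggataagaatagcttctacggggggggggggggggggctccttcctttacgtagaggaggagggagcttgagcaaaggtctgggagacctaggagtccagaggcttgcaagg
Col8a2, a network chain of the corneal endothelium's basement membrane, had 4 copies of GGGCGG at 93, 41, 19 and 15 bases, the last 3 in reverse, in chr4:126286544-126286792 on the plus strand.
Col8a2: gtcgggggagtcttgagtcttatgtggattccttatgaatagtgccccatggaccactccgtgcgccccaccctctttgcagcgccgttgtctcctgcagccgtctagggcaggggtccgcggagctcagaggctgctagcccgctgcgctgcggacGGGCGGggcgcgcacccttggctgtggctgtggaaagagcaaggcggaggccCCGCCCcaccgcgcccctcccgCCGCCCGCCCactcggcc
Col10a1, a network chain known from cartilage at growth plates, had TATAAA 32 bases before its start, at chr10:34389731-34389980 on the plus strand.
Col10a1: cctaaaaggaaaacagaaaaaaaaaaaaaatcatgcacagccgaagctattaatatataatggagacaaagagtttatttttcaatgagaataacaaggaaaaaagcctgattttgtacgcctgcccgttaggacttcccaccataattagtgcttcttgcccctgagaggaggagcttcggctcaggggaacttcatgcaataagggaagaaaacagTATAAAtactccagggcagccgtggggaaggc
Col25a1, a transmembrane chain of neurons, had CCAAT at 191 bases and GGGCGG at 40 and, in reverse, at 114 bases, in chr3:130180595-130180844 on the plus strand. The RefSeq span of this gene begins at 130180358, so the stretch lies within it.
Col25a1: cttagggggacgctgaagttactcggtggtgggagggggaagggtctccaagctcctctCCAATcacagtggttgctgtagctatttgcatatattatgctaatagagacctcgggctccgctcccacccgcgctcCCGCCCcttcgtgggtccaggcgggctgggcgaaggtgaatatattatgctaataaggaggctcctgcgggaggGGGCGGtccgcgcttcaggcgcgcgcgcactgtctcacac
Over the whole windows of 300 bases, which include 50 bases after the start, GGGCGG was in 21 of 36 collagen windows (58.3%) and in 35.7% of all 32851 windows. By class it was in 6 of 8 fibrillar, 4 of 5 type IV and 11 of 23 other windows. The Col4a1 and Col4a2 windows overlap, and the GGGCGG within the 22 bases at their shared start is counted in both. It is the only GGGCGG of the Col4a1 window and lies after both starts, inside the first exons. CCAAT was in 33.3% of collagen windows and 37.4% of all, and TATAAA in 13.9% and 13.6%, with none in the type IV windows. These are counts of letters, not of bound sites.

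In CON libraries the chain of highest level per length was Col1a2, at 58.9 ± 27.3 FPKM (SD, n = 3), where FPKM is fragments scaled to transcript length and library size. Col17a1, the hemidesmosome collagen of epithelial cells, followed at 40.0 ± 22.3 FPKM, then Col8a2 at 25.0 ± 10.5 and Col6a1 at 24.0 ± 13.3 FPKM. Col3a1 stood at 16.7 ± 3.21, Col6a2 at 15.4 ± 11.0, Col8a1 at 15.4 ± 2.55, Col9a3 at 14.9 ± 2.76 and Col1a1 at 13.6 ± 4.61 FPKM. Among type IV chains Col4a3 led with 6.69 ± 0.978 FPKM, above Col4a1 at 3.10 ± 0.770, Col4a4 at 2.70 ± 0.674, Col4a5 at 2.36 ± 0.449 and Col4a2 at 2.24 ± 0.476, and Col4a6 was at 0.121 ± 0.0175. The lowest were Col28a1 at 0.0929, Col15a1 at 0.0927, Col6a5 at 0.0803 and Col22a1 at 0.0487 FPKM. Across these 40 steps of the order, the CON libraries of neighbouring chains overlapped except from Col5a3 to Col10a1 and from Col10a1 to Col4a6. That compares 1 chain with the next across libraries. Within each CON library Col1a2 was above Col17a1 and Col17a1 above Col8a2, while Col6a1 was above Col8a2 in CON 2. CON 2 had the highest FPKM of Col1a2, Col17a1, Col6a1 and Col6a2 among the CON libraries, and the SD of these chains was large.

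**Figure D1:**
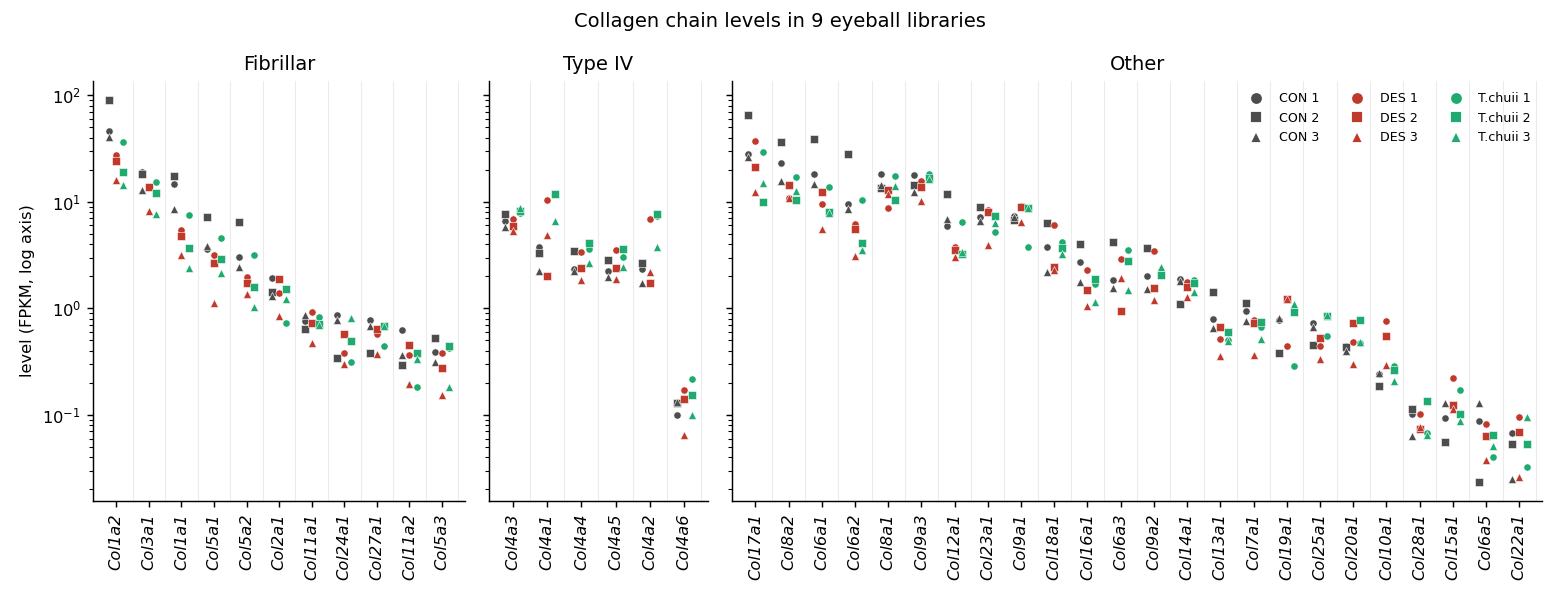
Level of each of the 41 collagen chains in FPKM on a log axis, with 1 point per library and the groups by colour; chains are ordered by their mean in CON. Col1a2 and Col17a1 lie at the top and Col22a1 at the bottom, and library points of neighbouring chains overlap along most of the order.

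The first comparison, of scopolamine-injected with uninjected eyes, asks which chains differ in the dry eye model. No gene passed an adjusted p under 0.05 in limma-voom (0.0% of 21287 genes tested), nor in limma-trend, and the adjusted p was 1.0 for each chain. Chains are counted here as lower or higher by the sign of the log2 change, the fitted difference between group means of log2 CPM, which can differ from the sign of a difference in CPM means. By this sign 30 of 41 chains were lower in DES than in CON, against 52.4% of all genes. All 11 fibrillar chains had a change below 0, with a median log2 change of -0.51, where the median of all genes was -0.02. Of the other chains 17 of 24 were lower (median -0.18), while of the type IV chains 2 of 6 were lower (median 0.10). An unadjusted p under 0.05 was reached by 8 chains, 7 of them lower, and by 235 genes in all (1.1%). Without DES 2, 15 genes passed the adjusted threshold, none of them a chain. DES and CON libraries did not overlap for 8 lower chains and 1 higher chain, against 1.65% of all genes lower and 2.0% higher. No test was run on the classes.

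Type I collagen, the main fibril former of sclera and cornea, was lower in DES than in CON in both of its chains. Levels compared between libraries are read counts scaled to a common library size (CPM), given for libraries 1, 2 and 3 of each group in turn. Col1a1 stood at 83.6, 119 and 49.7 CPM for CON, 36.2, 26.0 and 22.4 for DES, and 52.0, 24.0 and 13.9 for T.chuii. Every DES library lay below every CON library, and the log2 change was -1.51 ± 0.46 (SE). Col1a2, its partner chain, was at 231, 536 and 206 CPM for CON, 159, 117 and 99.7 for DES, and 223, 109 and 74.6 for T.chuii. Here too DES lay below CON throughout, with a log2 change of -1.26 ± 0.45, and CON 2 was more than 2 times each other CON library.

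Type V chains, which nucleate type I fibrils and set their width in the cornea, also had log2 changes below 0 in DES. Col5a1 was at 28.9, 68.9 and 30.7 CPM for CON, 29.8, 20.4 and 11.1 for DES, and 44.6, 26.9 and 17.8 for T.chuii, and DES 1 overlapped CON 1. Its log2 change was -1.03 ± 0.46. Col5a2 was at 19.3, 49.0 and 15.9 CPM for CON, 14.5, 10.5 and 10.8 for DES, and 24.6, 11.7 and 6.68 for T.chuii. The DES libraries lay below CON by a narrow margin in DES 1, and the change was -1.07 ± 0.51. Col3a1, which joins type I in mixed fibrils, was at 101, 115 and 70.7 CPM for CON, 85.2, 71.1 and 53.8 for DES, and 99.4, 74.5 and 42.1 for T.chuii. It overlapped widely, with a change of -0.45 ± 0.33. The remaining fibrillar chains, Col5a3, Col24a1, Col27a1 and Col11a2 among them, had smaller counts and overlapped as well.

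The vitreous and cartilage chains of types II and XI overlapped in all groups. Col2a1 was at 9.87, 8.70 and 6.76 CPM for CON, 8.34, 9.20 and 5.36 for DES, and 4.59, 9.08 and 6.41 for T.chuii, and T.chuii 1 was its lowest library. Col11a1 was at 5.65, 5.65 and 6.41 CPM for CON, 7.92, 4.95 and 4.36 for DES, and 7.45, 6.07 and 5.29 for T.chuii. Neither separated any pair of groups. The FACIT chain Col9a1, which coats type II fibrils, was at 22.1, 24.1 and 21.7 CPM for CON, 31.7, 25.8 and 23.9 for DES, and 13.7, 30.3 and 27.0 for T.chuii. T.chuii 1 was again the lowest, and that library also held the least rod marker reads, 0.879% against 1.58% to 4.51% elsewhere. DES 1, with 1.61% rod marker reads, had the highest Col9a1 level, and CON 2, with 1.58%, lay above CON 1 and CON 3. The part of rod content in these levels was not tested.

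Type VI chains, which surround fibrils and cells with beaded filaments, were lower in DES in 4 of 4 cases, with a median log2 change of -0.80. For Col6a3 and Col6a5 the change was smaller than its SE, at -0.35 ± 0.58 and -0.10 ± 0.55. Col6a5 had 15 to 71 reads a library. Col6a1 was at 69.5, 178 and 57.1 CPM for CON, 42.8, 45.1 and 26.4 for DES, and 63.2, 35.1 and 30.6 for T.chuii. DES lay below CON in every library, and the change was -1.25 ± 0.43. Col6a2 was at 35.6, 123 and 31.9 CPM for CON, 26.6, 20.1 and 14.0 for DES, and 46.5, 17.7 and 13.4 for T.chuii. The same held for it, with a change of -1.39 ± 0.57. Col6a3, the third chain of the usual trimer, did not follow them: it was at 19.4, 50.1 and 16.3 CPM for CON, 35.5, 9.39 and 25.0 for DES, and 44.7, 33.4 and 16.1 for T.chuii, with DES 1 and DES 3 above CON 1 and CON 3. CON 2 was the highest CON library for Col6a1, Col6a2 and Col6a3.

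Of the network chains of Descemet's membrane, Col8a2 was at 98.1, 184 and 65.9 CPM for CON, 52.7, 57.5 and 56.2 for DES, and 85.6, 53.3 and 53.5 for T.chuii. Its DES libraries lay close together and below CON, with a log2 change of -0.93 ± 0.34. Col8a1, which pairs with it, was at 89.9, 78.8 and 71.4 CPM for CON, 49.7, 61.5 and 72.5 for DES, and 105, 59.1 and 71.1 for T.chuii and overlapped. Col12a1, a FACIT that lies on type I fibrils, was at 67.3, 162 and 77.0 CPM for CON, 50.1, 38.7 and 43.0 for DES, and 88.7, 42.1 and 38.9 for T.chuii. DES was below CON throughout and the change was -1.11 ± 0.38. Col14a1, a related FACIT, was at 11.7, 7.96 and 11.2 CPM for CON, 12.6, 9.27 and 9.80 for DES, and 13.5, 12.3 and 9.02 for T.chuii and showed no such gap.

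Col10a1 was the only chain higher in DES without overlap. It was at 0.735, 0.672 and 0.755 CPM for CON, 2.67, 1.58 and 1.10 for DES, and 1.05, 0.916 and 0.643 for T.chuii, a low level of 31 to 133 reads a library, and the log2 change was 1.22 ± 0.39. It lies within the span of Nt5dc1 on the other strand and shares 18 exonic bases with it. The transmembrane chains were lower in 4 of 4 cases (median -0.57). Col25a1 was at 5.57, 4.12 and 5.27 CPM for CON, 3.91, 3.81 and 3.17 for DES, and 5.08, 7.40 and 6.64 for T.chuii. DES was below CON throughout, with a change of -0.44 ± 0.27. Col17a1 was at 149, 412 and 141 CPM for CON, 231, 107 and 81.7 for DES, and 188, 60.5 and 81.6 for T.chuii. CON 2 and DES 1 were high and the groups overlapped, with a change of -0.70 ± 0.55. Corneal epithelium marker reads, from the cells that carry Col17a1, were 2.08%, 5.16% and 2.41% of reads in CON and 3.25%, 1.74% and 1.88% for DES, and were highest in the same libraries.

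The anchoring fibril chain Col7a1 was at 8.47, 11.7 and 6.81 CPM for CON, 8.00, 6.24 and 4.06 for DES, and 7.15, 7.55 and 4.69 for T.chuii, and the multiplexin Col18a1, whose carboxy end gives endostatin, was at 21.2, 42.7 and 12.7 CPM for CON, 39.9, 14.9 and 14.8 for DES, and 28.5, 26.5 and 18.7 for T.chuii. Both overlapped between DES and CON.

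**Figure D2:**
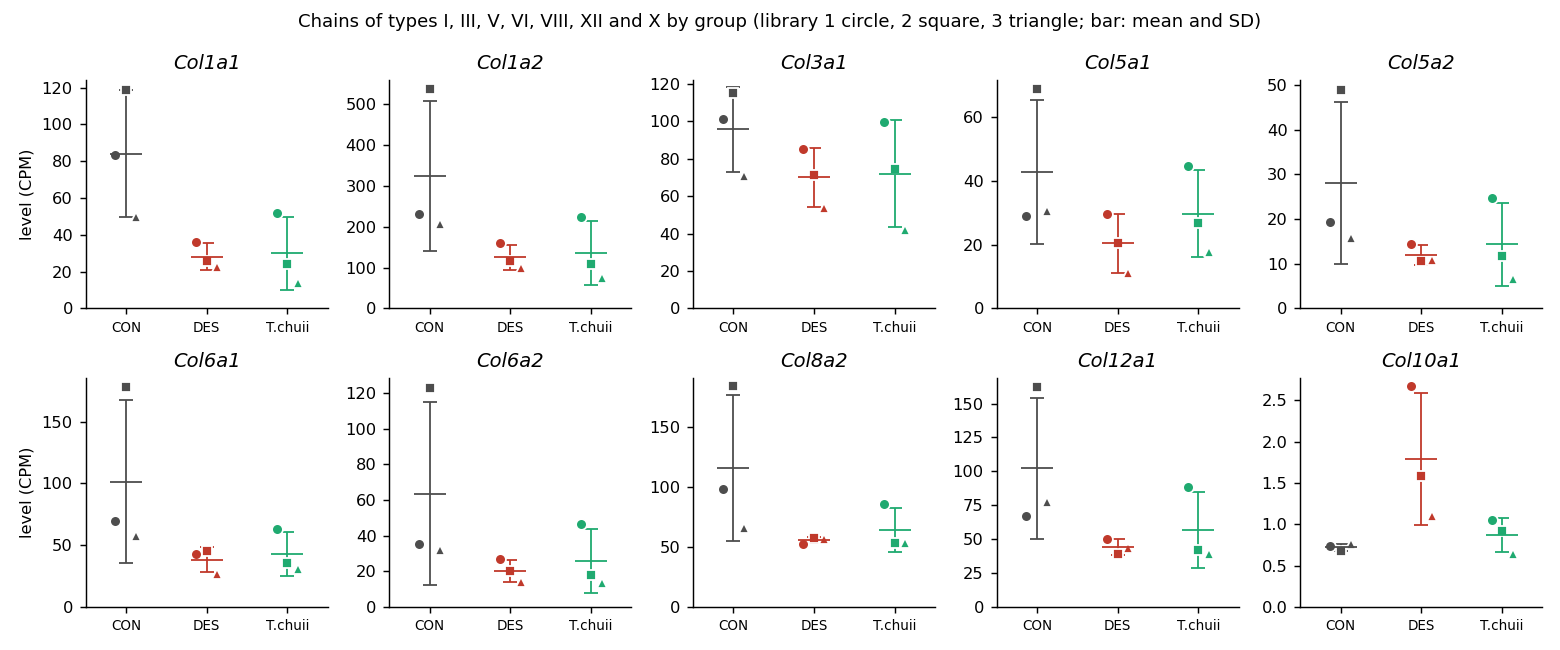
Levels in CPM of 10 chains by group, each point 1 library (1 circle, 2 square, 3 triangle), with a bar for the mean and its SD. DES points lie below CON points for Col1a1, Col1a2, Col5a2, Col6a1, Col6a2, Col8a2 and Col12a1, and above them for Col10a1.

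These counts depended on single libraries. Without CON 2, DES 1 and T.chuii 1, all 11 fibrillar chains were still lower in DES, and 13 chains had an unadjusted p under 0.05. That number was 3 without CON 2 alone and 4 without DES 3, and 8 of 11 fibrillar chains were lower without DES 3. How many of all genes reached such a p in these settings was not counted, so these numbers have no share of all genes to be set against. The 8 lower chains without overlap became 16 without DES 1, where 8.31% of all genes did so, and 13 without CON 3, with 5.59% of all genes. Higher chains without overlap became 3 without CON 2, DES 2 or DES 3, with 6.28%, 6.78% and 5.24% of all genes, and 2 without DES 1 or CON 3, with 8.2% and 4.83%. Keratocyte and scleral fibroblast markers, from the cells that make type I collagen, had log2 changes below 0 in DES in 13 of 14 cases (median -0.33), of which Aldh3a1, also made by corneal epithelium, held the largest part in CON. Their summed share was 1.71% to 2.93% of reads in CON and 1.24% to 2.11% for DES. In whole eyes fewer cells of a type and less RNA per cell cannot be told apart, and the part of these markers in the collagen levels was not tested.

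Of the basement membrane chains, Col4a1 was at 23.9, 24.9 and 14.5 CPM for CON, 77.1, 12.2 and 37.9 for DES, and 91.6, 86.3 and 43.0 for T.chuii. DES 1 and DES 3 stood above all CON libraries and DES 2 below them, giving a change of 0.67 ± 0.59. Col4a2 was at 14.5, 19.5 and 10.8 CPM for CON, 50.2, 10.4 and 16.9 for DES, and 55.8, 54.5 and 24.1 for T.chuii. DES 1 stood above, DES 3 within and DES 2 just below the CON range, with a change of 0.50 ± 0.56, and without DES 1 the change was -0.17. Without DES 1 the type IV chains with a log2 change below 0 were 5 of 6, and without CON 2 or DES 2 there were 0.

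The other type IV chains include Col4a3, Col4a4 and Col4a5, which replace this pair in the glomerulus and in parts of the eye's basement membranes. Col4a3 was at 54.3, 75.7 and 48.6 CPM for CON, 66.6, 47.2 and 54.8 for DES, and 78.7, 78.2 and 74.6 for T.chuii. Col4a4 was at 16.4, 28.2 and 16.6 CPM for CON, 26.6, 15.6 and 16.4 for DES, and 32.7, 34.7 and 20.3 for T.chuii. Col4a5 was at 14.1, 21.2 and 12.7 CPM for CON, 26.0, 14.3 and 14.6 for DES, and 22.9, 25.4 and 15.8 for T.chuii. Col4a6 was at 0.664, 0.981 and 0.872 CPM for CON, 1.28, 0.859 and 0.525 for DES, and 1.70, 1.13 and 0.662 for T.chuii, with 19 to 73 reads a library. DES overlapped CON for these 4, and T.chuii 1 and T.chuii 2 were above all DES libraries for Col4a3 and Col4a4. Col4a3 shares 563 exonic bases, 5.65% of its exonic length, with C430014B12Rik on the other strand, so its reads could be divided.

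Feeding Tetraselmis chuii to injected mice was compared with injection alone. No gene passed an adjusted p under 0.05 (0.0% of genes), and the smallest adjusted p of a chain was 0.9999 in limma-voom. The log2 change was below 0 for 13 of 41 chains, against 54.9% of all genes. All 6 type IV chains were higher, with a median log2 change of 0.53, against -0.03 for all genes. Fibrillar chains were split, with 5 log2 changes below 0 and 6 above (median 0.05). Of those 5, Col1a1, Col1a2 and Col3a1 had a higher CPM mean in T.chuii than in DES, with T.chuii 1 the highest library of both groups. Log2 changes were above 0 for 16 of the 24 others (median 0.11). An unadjusted p under 0.05 was reached by 2 chains and by 233 genes in all (1.09%). T.chuii and DES did not overlap for 1 lower and 2 higher chains, against 2.49% and 2.3% of all genes.

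The 2 higher chains were Col25a1, with a log2 change of 0.79 ± 0.27, and Col4a3, with 0.47 ± 0.22, and the lower one was Col10a1, with -0.99 ± 0.38. Col25a1 and Col10a1 were also the pair with an unadjusted p under 0.05, and both lay on the opposite side in DES against CON. Those comparisons share the DES libraries, so the opposite sides are not separate evidence. Col4a1 and Col4a2 were higher by 1.10 ± 0.57 and 1.02 ± 0.53, with DES 1 inside the T.chuii range. Col4a4 was higher by 0.58 ± 0.32. Col9a3, a FACIT chain, was at 49.1, 46.5 and 34.8 CPM for CON, 48.9, 35.6 and 33.8 for DES, and 60.0, 52.1 and 46.1 for T.chuii, with a change of 0.43 ± 0.23. It shares 234 exonic bases with Tcfl5. For both type I chains T.chuii 1 lay above and T.chuii 3 below all DES libraries.

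Deviations of libraries with the same title number in DES and T.chuii correlated at 0.558, 0.342 and 0.170, but DES 2 with T.chuii 3, of different numbers, at 0.463. The file headers number the libraries otherwise, and under them DES 3 and T.chuii 2 alone share a number, with a correlation of -0.064. With the title numbers taken as pairs 2 genes passed the adjusted threshold in limma-voom, neither a chain. With the pairs, 8 chains had an unadjusted p under 0.05, and the smallest adjusted p of a chain was 0.481. The count was 6 without DES 1, 4 without T.chuii 3 and 1 without DES 2 or T.chuii 2. Without CON 2, DES 1 and T.chuii 1 it was 7, and the share of all genes past that p was not counted in these fits. Higher chains without overlap numbered 10 without DES 1, 7 without T.chuii 3 and 4 without T.chuii 1, where 7.85%, 6.71% and 8.47% of all genes did so. Lower ones numbered 3 without T.chuii 1 and 2 without DES 1, beside 9.78% and 5.88% of all genes. All 6 type IV chains remained higher in T.chuii than in DES under each of the 22 settings tried.

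T.chuii libraries, compared with CON, again gave no gene past an adjusted p under 0.05 (0.0%), and the smallest adjusted p of a chain was 0.986 in limma-voom. The log2 change was below 0 for 22 of 41 chains, against 55.4% of all genes, and the CPM means of Col9a1, Col9a2, Col18a1 and Col28a1 differed the other way. Fibrillar chains were lower in 9 of 11 cases (median -0.41), all 6 type IV chains were higher (median 0.46), and 13 of 24 others were lower (median -0.01), where all genes had a median of -0.04. An unadjusted p under 0.05 was reached by 6 chains and by 912 genes in all (4.28%). Without DES 2, 17 genes passed the adjusted threshold, none of them a chain. Of the chains 0 lay lower without overlap and 2 higher, against 2.97% and 5.45% of all genes. These 2 were Col4a1, with a log2 change of 1.78 ± 0.59, and Col4a2, with 1.52 ± 0.54, so that every T.chuii library stood above every CON library for both. The other chains with an unadjusted p under 0.05 were Col1a1 at -1.63 ± 0.46, Col1a2 at -1.26 ± 0.45, Col6a1 at -1.13 ± 0.43 and Col8a2 at -0.76 ± 0.34. T.chuii 1 overlapped CON for each of these 4. The count of chains was 11 without T.chuii 1, 3 without T.chuii 2 and 12 without CON 2, DES 1 and T.chuii 1. Such a count over all genes was not made for these settings. Lower chains without overlap numbered 10 without T.chuii 1, 8 without CON 3, 4 without T.chuii 2 and 1 without CON 2, beside 14.6%, 8.5%, 5.83% and 5.26% of all genes. Higher ones numbered 10 without T.chuii 3, 7 without CON 2 and 5 without T.chuii 1, beside 10.7%, 8.53% and 15.1%. The log2 differences of Col12a1 and Col17a1 were -0.84 ± 0.38 and -1.07 ± 0.54.

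Both injected groups, averaged, against CON gave no adjusted call (0.0%), with an adjusted p of 1.0 for each chain. The log2 change was below 0 for 26 of 41 chains, against 54.7% of genes, including 10 of 11 fibrillar chains (median -0.41), 0 of 6 type IV chains (median 0.26) and 16 of 24 others (median -0.08). An unadjusted p under 0.05 was reached by 8 chains and by 610 genes in all (2.87%). Without DES 2, 23 genes passed the adjusted threshold, none of them a chain. The chains were Col1a1 at -1.57 ± 0.39, Col1a2 at -1.26 ± 0.39, Col6a2 at -1.31 ± 0.48, Col6a1 at -1.19 ± 0.37, Col5a2 at -1.05 ± 0.43, Col12a1 at -0.97 ± 0.33 and Col8a2 at -0.85 ± 0.30, all lower, and Col4a1 at 1.22 ± 0.51, higher. The count was 1 without CON 2, where the share of all genes past that p was not counted. No chain separated the injected libraries from CON without overlap in either direction, against 0.319% of genes lower and 0.803% higher. Without CON 3 there were 8 such lower chains, beside 3% of all genes, and without T.chuii 1 there were 7, beside 0.902%. Leaving out CON 2, DES 2 or T.chuii 3 gave 1 higher chain each, beside 1.86%, 2.08% and 1.02% of all genes.

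**Figure D3:**
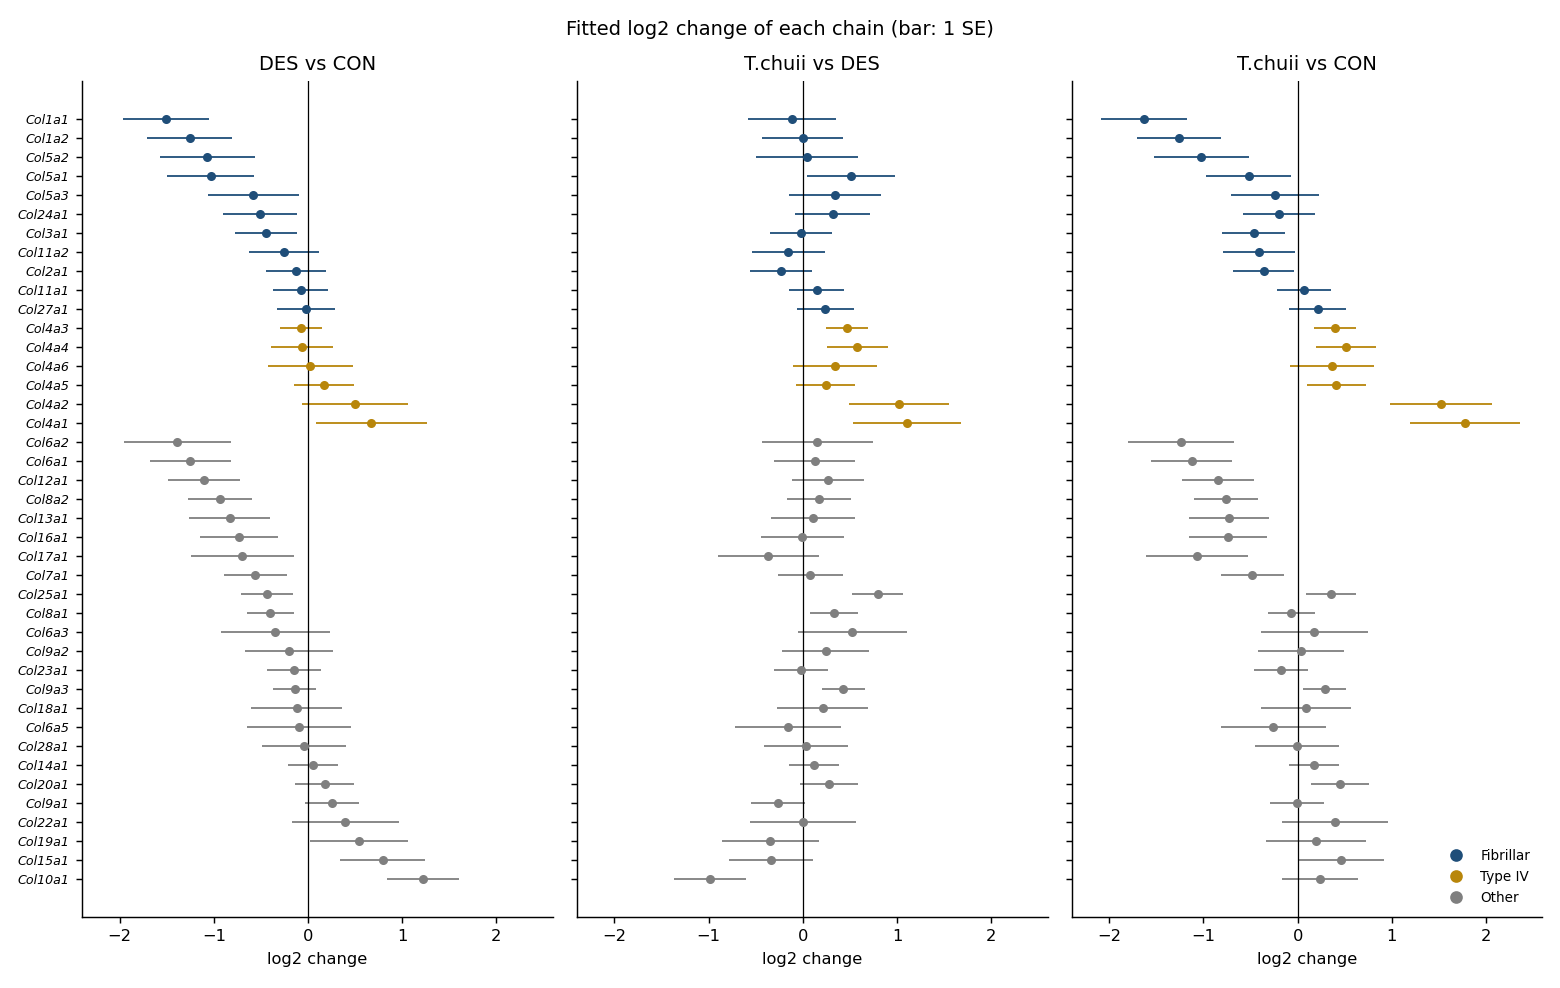
Log2 change of each chain (point) with 1 standard error to either side (bar) in the comparisons of DES with CON, T.chuii with DES and T.chuii with CON, coloured by class. The 11 fibrillar chains lie below 0 in the DES against CON panel, and the 6 type IV chains lie above 0 in both panels with T.chuii.

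By class, the make-up of collagen RNA set the CON libraries apart from the injected ones, as a description with no test. Of summed collagen FPKM, the fibrillar share was 35.0%, 34.8% and 34.3% in CON 1, 2 and 3. It was 25.6%, 28.8% and 25.4% for DES and 29.0%, 24.9% and 20.1% for T.chuii. Every injected library lay below every CON library, and Col1a2 is the largest part of that sum. The type IV share was 6.64%, 4.89% and 6.67% for CON, 14.5%, 8.09% and 12.7% for DES, and 14.0%, 20.4% and 15.5% for T.chuii, so every injected library lay above CON. The remaining chains held 54.7% to 64.5% in all libraries. The ratio of summed fibrillar to summed type IV FPKM was 5.28, 7.12 and 5.14 for CON, 1.77, 3.57 and 1.99 for DES, and 2.07, 1.22 and 1.30 for T.chuii. Each library of CON stood above every injected one, and DES 2, the lens-poor injected library, was the nearest. All CON libraries were lens-poor as well, and the injected libraries other than DES 2 were lens-rich. The part of lens RNA in these shares was not tested. How often sums of other genes separate the libraries in this way was not counted. The summed FPKM of all chains was 261, 412 and 212 for CON, 218, 180 and 127 for DES and 242, 175 and 158 for T.chuii. Shares of a sum are not independent of each other. The fibrillar sum itself was 72.6 to 143 FPKM in CON, against 32.3 to 55.7 for DES, while the type IV sum was 14.1 to 20.1 for CON and 14.6 to 31.4 for DES.

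**Figure D4:**
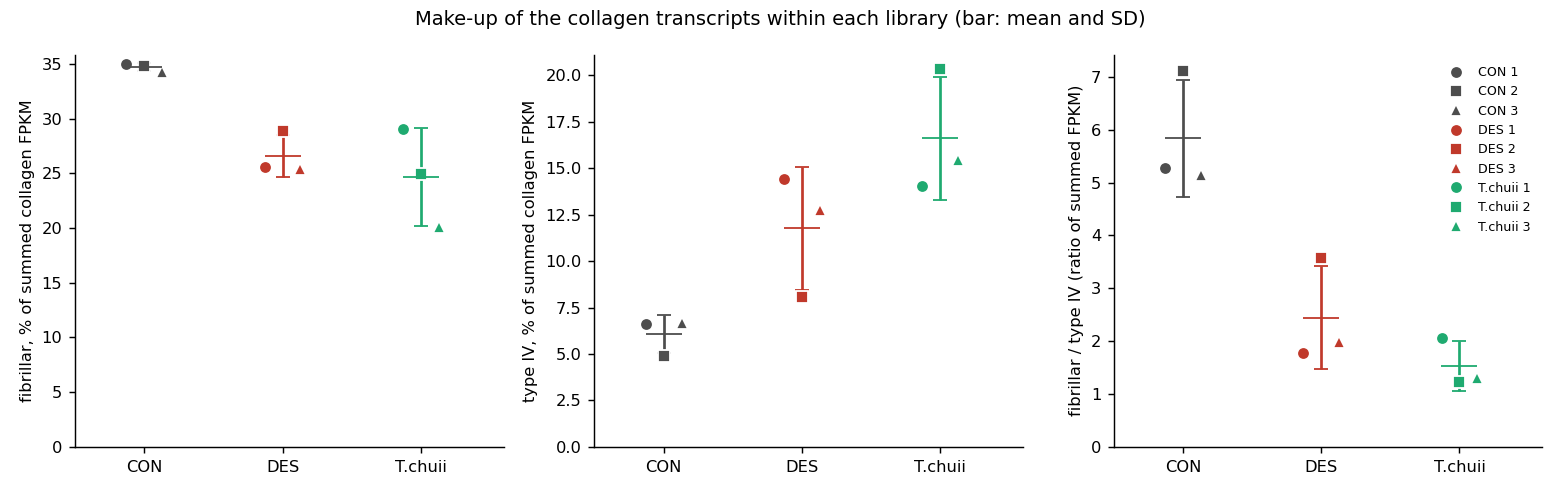
Fibrillar and type IV shares of summed collagen FPKM in percent, and the ratio of their sums, with 1 point per library and a bar for the mean and SD of a group. The fibrillar share lies between 34.3% and 35.0% for CON and between 20.1% and 29.0% in the injected libraries.

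The level of Col4a1 split the libraries as lens marker reads did. Of 15 listed lens markers 11 were in the tables. Each of them had a log2 change above 0 in DES against CON and in T.chuii against DES. The CPM mean of Cryba4, however, was 4914 in DES and 2022 in T.chuii. The deposited values cover only genes with at least 1 read in every library, and the lens shares leave out Cryba1, Cryba2, Crybb2 and Mip. None of these 11 markers passed the adjusted threshold. The capsule that encloses the lens is a type IV basement membrane made by its epithelium. Col4a1 was at 37.9 to 91.6 CPM in the 5 injected libraries with 1.24% or more lens reads, and at 12.2 to 24.9 CPM in the 4 libraries with 0.0431% or less. Among those 5 it did not rank as lens reads did: DES 3, with 3.61%, was lowest, and T.chuii 1, with 2.61%, was highest. Striated muscle marker reads were also highest in T.chuii 1, at 1.66%, but DES 3 held 0.166%, less than CON 1 with 0.291%. The part of either tissue in Col4a1 was not tested. Col4a2 did not divide in this way, with 16.9 CPM in the lens-rich DES 3 and 19.5 CPM in the lens-poor CON 2. DES 2, injected but lens-poor, had 12.2 CPM of Col4a1, below each CON library. For Col1a1 the same library, at 26.0 CPM, lay below each CON library too, as did Col1a2 at 117 CPM. With the lens share of each library as a covariate, added after the data were seen, the log2 change of Col4a1 against CON was -1.04 for DES and -0.51 for T.chuii, and 2 of 6 type IV chains were higher in T.chuii than in CON. All CON libraries were lens-poor and all T.chuii libraries were lens-rich, so treatment and lens RNA cannot be told apart between these groups.

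**Figure D5:**
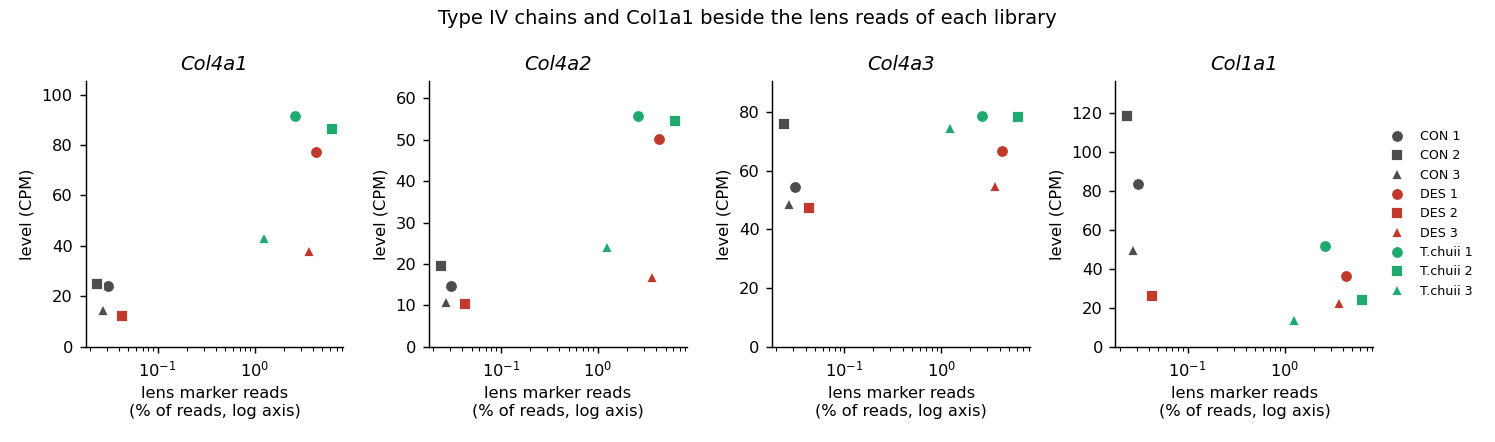
Level of Col4a1, Col4a2, Col4a3 and Col1a1 in CPM against the share of reads from lens markers in percent, on a log axis, with 1 point per library. Col4a1 is lower in each of the 4 lens-poor libraries, DES 2 among them, than in the other 5, Col4a2 in DES 3 (16.9 CPM) lies below that in CON 2 (19.5 CPM), and Col1a1 in DES 2 lies with the other injected libraries.

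Ratios of chains that assemble together, in FPKM within a library, were steady for some trimers and not for others. Col1a1 to Col1a2 was 0.318 in CON 1 and 0.164 to 0.212 in the other 8. Col4a1 to Col4a2 was 1.14 to 2.19, Col4a3 to Col4a4 2.00 to 3.27 and Col6a1 to Col6a2 1.31 to 2.23. These pairs and the type I pair stayed within about a 2-fold range. Other partner chains spread more. Col8a1 to Col8a2 was 0.373 to 1.13, Col9a1 to Col9a3 0.207 to 0.651 and Col5a1 to Col5a2 0.807 to 2.11. Col9a2 to Col9a3 was 0.112 to 0.258 and Col4a5 to Col4a6 13.8 to 29.1. Col6a3 to Col6a2 was 0.150 to 0.194 for CON, 0.477, 0.169 and 0.633 for DES and 0.341, 0.679 and 0.429 for T.chuii. The low value in DES was that of the lens-poor DES 2. Chains of different collagen types were set against each other too. Col3a1 to Col1a2 was 0.410, 0.201 and 0.322 for CON, 0.503, 0.569 and 0.506 for DES, and 0.418, 0.639 and 0.530 for T.chuii. Every injected library was above every CON library. Col4a1 to Col1a2 was 0.0814, 0.0366 and 0.0557 for CON, and 0.0817 to 0.622 in the injected libraries, with the lowest of those in DES 2.

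Levels of several chains ran together over the 9 libraries, given as Pearson's r of log2 CPM with no test, since the libraries share their tissue make-up. The r was 0.98 for Col1a2 with Col6a2, 0.98 for Col6a1 with Col6a2, 0.97 for Col1a1 with Col1a2 and 0.97 for Col4a1 with Col4a2. Without CON 2, DES 1 and T.chuii 1 these were 0.98, 0.97, 0.98 and 0.96. The median r was 0.80 over 15 pairs of type IV chains, 0.31 over 55 fibrillar pairs and 0.12 over 66 pairs across those classes. Without those 3 libraries the medians were 0.84, 0.66 and 0.03. Of all genes tested, the 10 most like Col1a1 were Matn4, Col1a2, 4930556M19Rik, Lox, Szrd1, Lbp, Gm30744, Srcin1, Csrnp1 and Col5a2, with r from 0.97 to 0.94. Lox encodes lysyl oxidase, which cross-links collagen. The 10 most like Col4a1 were Igfbp7, Slc38a4, Fign, Nid1, 2310043M15Rik, Cybrd1, Col4a2, Fez2, Gm32573 and Chrdl1, with r from 0.98 to 0.97. Nid1 encodes nidogen, a linker of basement membranes.

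The genes that fold, process, bind and break down collagen were lower in DES than in CON in most cases by the sign of the log2 change, with no adjusted call. Log2 changes were below 0 for 18 of 21 folding and modification genes (median -0.18), 14 of 14 processing and cross-linking genes (median -0.38), 7 of 8 receptors (median -0.33) and 9 of 9 degradation genes (median -0.43), against 52.4% of all genes. In T.chuii against DES those above 0 were 14 of 21, 12 of 14, 5 of 8 and 9 of 9, with medians of 0.03, 0.17, 0.08 and 0.34. In T.chuii against CON those below 0 were 18 of 21, 11 of 14, 6 of 8 and 5 of 9, with medians of -0.25, -0.23, -0.19 and -0.09. In DES against CON 5 genes of these lists lay lower without overlap, where 1.65% of all genes did so. Plod1, a lysyl hydroxylase, was at 38.8, 99.3 and 36.8 CPM for CON and 35.0, 33.0 and 24.0 for DES. The change was -0.77 ± 0.38. Itga11, a subunit of a receptor for fibrillar collagen, was at 2.21, 4.70 and 1.93 CPM for CON and 1.30, 1.38 and 0.745 for DES. Its change was -1.28 ± 0.50. Mmp2, a gelatinase, was at 65.6, 208 and 82.8 CPM for CON and 57.1, 49.5 and 33.0 for DES, for a change of -1.19 ± 0.46. The other two were Pcolce2, an enhancer of procollagen cleavage, at -0.23 ± 0.19, and the collagenolytic protease Ctsk, at -0.69 ± 0.39. The log2 change of Lox in the injected libraries against CON was -1.06 ± 0.37.

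Markers of other tissues moved with the groups too. Striated muscle marker reads were 0.291%, 0.0830% and 0.190% of reads in CON, 0.864%, 0.280% and 0.166% for DES and 1.66%, 0.864% and 0.390% for T.chuii. All 12 had log2 changes above 0 in DES against CON and in T.chuii against DES, and none passed the adjusted threshold. Adipocyte markers, with values for 4 of 8 listed, were 0.0195% to 0.0219% for CON and 0.00922% to 0.0149% for DES. They were 0.0247% to 0.249% for T.chuii, highest in T.chuii 1. Corneal epithelium markers had log2 changes below 0 in T.chuii against CON in 12 of 12 cases (median -0.81) and rod markers in 7 of 10 (median -0.18). Vascular endothelium, smooth muscle and pericyte, ciliary body and trabecular meshwork, and cartilage markers each held at most 0.0878% of reads, and Schwann and myelin markers at most 0.141%. The part of these tissues in the collagen values was not tested.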

How the data were processed

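Whole-eyeball RNA libraries (3 each of CON, DES and T.chuii, grouped by sample title) were made with a stranded mRNA kit from 1 µg of RNA, per the labels' protocols. Build mm10, HISAT2 2.1.0, StringTie 2.1.3b, Bowtie2 2.3.4.1, Trimmomatic 0.38 and FastQC 0.11.7 are named per the submitters' processing notes; parameters and strand setting are not given in the sources used here. Per the file headers, the deposited values of a gene are its read count and its FPKM. Their transcript field spans a varying number of cells, so both were taken counting from the last cell of a row.

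Each of the 22587 genes had at least 1 read in all 9 libraries, so shares of all genes leave out genes unread in any library. Tested were the 21287 of 22587 genes with 15 reads in total whose CPM in 3 or more libraries matched 10 reads or more at median depth. Library scaling used trimmed means of M-values, in code written here, and the counts went into limma-voom (limma 3.58.1, R 4.3.3), all 9 libraries and 3 group means in 1 fit, 6 residual degrees of freedom, two-sided, Benjamini-Hochberg adjusted over all genes at 0.05. A quasi-likelihood count test was not run, because the irregular rows were not accepted as count columns by header position. The fit was tested on simulated counts. CPM values carry the same scaling; FPKM was used for levels between genes. Python 3.11.15, pandas 2.3.3 and matplotlib 3.10.9 were used otherwise.

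The chains, classes and gene lists were chosen with earlier results of these data known. Values in every library were written out for a set of main chains of each class, any chain past the threshold and the 3 with the smallest p in each comparison; genes outside the family came from the lists, at most 3 of a list without overlap. Promoter stretches are from RefSeq, GRCm38.p6, positions counted back from its start, and exon overlaps from the reference annotation. No pair of libraries agreed within sampling noise (lowest chi-square per degree of freedom 32.7). Library numbers are those of the titles; the file headers number the same libraries 1, 4 and 5 for CON, 1, 2 and 4 for DES and 3, 4 and 5 for T.chuii. Deviations from the group means of DES and T.chuii libraries with the same title number correlated at 0.170 to 0.558, above 0.1 in 3 of 3 pairs, so they were taken as pairs in an added fit, although nothing in the labels says that they share an animal or a day; CON pairs with DES (-0.30 to 0.23) and with T.chuii (-0.37 to 0.29) were not. Alternatives covered scaling, filters, FPKM pseudocounts of 1 and 0.1, weights, covariates and each library left out.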

Additional observations from a re-analysis of the deposited data

How the results depend on the processing

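No chain passed an adjusted p under 0.05 in limma under any of the 22 settings, and the smallest adjusted p was 0.125, for Col1a1 in T.chuii against CON with sample quality weights. The chains with an unadjusted p under 0.05 numbered 2 to 13 in DES against CON, 1 to 8 in T.chuii against DES, 1 to 14 in T.chuii against CON and 1 to 17 in injected against CON over these settings. The number of all genes past that p is given for the main fit alone, so these ranges have no share of all genes beside them. Of 43 single-gene changes followed, 38 kept their direction throughout. These are changes printed above, many of them chosen in these same libraries for a small p or groups without overlap. A kept direction in refits of the same libraries is therefore not separate evidence. Genes called over the whole table ranged, with 1 library left out, from 0 to 15 in DES against CON, 0 to 17 in T.chuii against CON and 0 to 23 in injected against CON, the highest each time without DES 2. With sample quality weights 2 genes were called in T.chuii against CON and 1 in injected against CON. Without CON 2, DES 1 and T.chuii 1 there was 1 each in T.chuii against DES and T.chuii against CON, and the log2 ratio of fibrillar to type IV FPKM in T.chuii minus DES was -1.08 (-0.65 with all libraries). With the replicate block over all 9 libraries 0 genes were called in each comparison, and with DES and T.chuii taken as pairs (replicate block) 2 were, in T.chuii against DES, neither a chain. The median of the other chains in DES against CON was -0.44 to -0.037 with 1 library left out. With the lens share as a covariate, chosen after seeing the data, it was -0.52 in DES against CON, -0.53 in T.chuii against CON and -0.55 in injected against CON, and the type IV median in T.chuii against CON was -0.14. The same covariate turned Col4a1 to -1.04 and Col4a2 to -0.81 in DES against CON, to -0.51 and -0.24 in T.chuii against CON, and Col4a1 to -0.77 in injected against CON. With 1 library left out the change of Col4a2 in DES against CON was -0.17 (without DES 1) to 1.05 (without DES 2). The cause of these shifts was not tested. Chains of few reads, such as Col22a1 and Col6a5, were measured too coarsely for small differences.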
